A study of Mus musculus with 12 samples.

Results

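The effect of a Batf3-expressing vector was measured in CD8 T cells kept with IL-15 and given no antigen receptor stimulus during that 6 h culture. The comparison used 6 of the 12 libraries of the study, 3 from cells with the empty control vector and 3 from cells with the Batf3 vector, and all genes of the deposited count table were compared. CD8 T cells came from the spleen of OT-I mice on the C57BL/6 background, whose T cells carry a transgenic receptor for an ovalbumin peptide, so that all groups share 1 receptor. After retroviral transduction with the empty or the Batf3 vector, transduced cells were sorted by flow cytometry and cultured in IL-15 (100 ng/ml) over 6 h. The other 6 libraries came from cells of both vectors given antibodies to CD3 and CD28 for the same time, with no IL-15 named for them, and serve here as the second culture. The labels call the 3 replicates of each group technical, so that standard errors and p-values measure the spread between these libraries and not that between mice or transductions. No source used here gives the promoter of the vector.

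BATF3 is a small basic leucine zipper protein of the AP-1 superfamily. It lacks a transactivation domain of its own and binds DNA as a heterodimer with JUN proteins, also together with IRF4 or IRF8. It is best known as a factor needed for the development of cross-presenting conventional dendritic cells. In CD8 T cells, IL-15 acts through IL2RB and the common gamma chain to maintain survival and slow division, and it is a main signal that keeps memory CD8 T cells in the absence of antigen.

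The 6 libraries held between 14211564 and 14468231 counted reads each, with 21860 to 21966 genes detected in control libraries and 23232 to 23387 in Batf3 libraries. Levels are given as CPM, reads relative to the library total, scaled with the TMM factors of edgeR, which were 1.04 to 1.05 in control and 1.10 in Batf3 libraries. A count of 3 in 1 library corresponded to 0.191 to 0.199 CPM. T cell markers were high in both groups. Cd8a stood at 753, 749.7 and 742 CPM in the control libraries and at 662, 642 and 653 CPM in the Batf3 libraries, and Cd3e at 176, 170.3 and 175 CPM and 171, 174 and 159.99 CPM. Of 3 CD4 T cell markers, Cd4 was at most 0.332 CPM in any library, but Zbtb7b and Cd40lg were both called higher, and the summed level was 13.1 to 15.8 CPM in control and 23.1 to 24.99 CPM in Batf3 libraries. Summed levels of 8 B cell markers were 4.64 to 6.05 and 4.999 to 7.56 CPM, with 1 of 3 tested members higher and Ms4a1 at 0 in all 6 libraries. Summed levels of 8 macrophage and monocyte markers were 8.49 to 10.5 CPM in control and 14.2 to 15.3 CPM in Batf3 libraries (2 of 4 tested higher), those of 9 conventional dendritic cell markers other than Batf3 44.1 to 45.2 and 44.6 to 47.3 CPM, and those of 5 NK cell markers 12.7 to 14.3 and 10.5 to 12.8 CPM. Counts mapped to mitochondrial genes made up 1.89% to 2.03% of control and 2.19% to 2.31% of Batf3 libraries. The part of these differences in the results below was not tested. In bulk RNA, fewer cells of a type and less RNA per cell cannot be told apart.

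Of 15702 genes tested, 2560 were called higher with Batf3 (16.3%) and 3615 lower (23%), by edgeR's quasi-likelihood test at a Benjamini-Hochberg adjusted p under 0.05. Most changes were small. At 2-fold or more, 355 genes were higher (2.26%) and 136 lower (0.866%), so that the larger changes were mainly rises while the small ones were mainly falls. Only 51 of the 355 and 33 of the 136 reached 10 CPM in the higher group. The 3 Batf3 libraries all lay above the 3 control libraries for 20.7% of tested genes and all below for 27.1%. These shares are the background for every list below, together with the median log2 change over all tested genes of -0.02. They are not matched for level, and the share called lower was larger among genes at high levels.

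The direction of the calls followed the level of the gene. Among 1692 genes under 1 CPM, 96 were called higher and 37 lower, whereas among 92 genes over 1000 CPM 15 were higher and 59 lower, with a median of -0.16. Of 2146 genes at 100 to 1000 CPM, 23% were higher and 50.6% lower, with a median of -0.09. The split also depended on the scaling. With library sizes alone, without TMM factors, 3604 genes were called higher and 2397 lower, and 60.1% of the calls were rises against 41.5% with TMM. The median moved from -0.02 to 0.05. Changes smaller than this shift have a direction that the scaling sets. The excess of falls also depended on which libraries and genes entered the fit. The 6 IL-15 libraries alone gave 2990 genes higher and 3052 lower (median 0.005). A filter at a mean of 10 CPM gave 2507 and 2473.

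Batf3 itself checks the labels. It stood at 7.44, 5.83 and 7.02 CPM in the control libraries and at 475, 468 and 469 CPM in the Batf3 libraries (log2 change 6.12 ± 0.08, adjusted p = 3.96e-68, edgeR quasi-likelihood, Benjamini-Hochberg, n = 3 libraries a group, as for all values that follow). The counts do not separate the vector's transcript from the endogenous one. Its usual partners moved little or fell. Batf, the closest relative, was at 19.5, 19.3 and 20.1 CPM and 20.7, 20.5 and 20.4 CPM and was not called (adjusted p = 0.527). Junb (-0.25 ± 0.03), Jund (-0.20 ± 0.05) and Irf4 (-0.11 ± 0.03) fell, and Irf8, the interferon regulatory factor that pairs with BATF proteins, fell from 115, 116 and 113 CPM to 78.9, 71.8 and 77.8 CPM (log2 change -0.59 ± 0.04, adjusted p = 3.97e-21). Fos (0.56 ± 0.09), Fosb (0.39 ± 0.09) and Bach2, a repressor at AP-1 sites (0.32 ± 0.05), rose. Of 19 tested genes for BATF partners and AP-1 factors, 6 rose and 7 fell, and 1 of the rises was 2-fold or more.

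After Batf3 the largest rises among genes at 10 CPM or more were Foxp3 and Rasgrf1. Foxp3, which specifies regulatory T cells, was at 0.465, 0.398 and 0.994 CPM in control libraries and at 12.2, 11.8 and 11.4 CPM with Batf3 (log2 change 4.23 ± 0.32, adjusted p = 3.56e-24). Rasgrf1, a guanine nucleotide exchange factor for RAS known mainly from neurons, went from 0.531, 0.398 and 0.795 CPM to 10.6, 10.1 and 11.1 CPM (log2 change 4.18 ± 0.31, adjusted p = 1.61e-24). The groups were far apart in both genes, but control levels rested on few reads. Miat, a long noncoding RNA, was at 0.996, 1.33 and 1.79 CPM and 14.2, 13.1 and 12.4 CPM (log2 change 3.26 ± 0.23, adjusted p = 1.46e-22).

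Il7r and Slamf6 followed, at higher levels in both groups. Il7r, the IL-7 receptor chain that marks T cells able to persist, went from 37.5, 34.3 and 37.5 CPM to 137, 137 and 127 CPM (log2 change 1.87 ± 0.07, adjusted p = 1.04e-17). Slamf6, a homophilic receptor found on memory and progenitor T cells, went from 28.2, 26.8 and 30.7 CPM to 101, 103 and 105 CPM (log2 change 1.85 ± 0.05, adjusted p = 7.21e-40). In both genes the lowest Batf3 library was more than 3 times as high as the highest control library. Tbc1d4, a RAB GTPase-activating protein of glucose transporter traffic, rose from 21.5, 21.8 and 24.3 CPM to 70.9, 64.3 and 64.9 CPM (log2 change 1.57 ± 0.07, adjusted p = 1.33e-29).

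The other rises in this group included genes with known main roles outside T cells. Ret encodes the receptor tyrosine kinase for GDNF family ligands (1.73 ± 0.13), Gpld1 a phospholipase that cleaves GPI anchors (1.71 ± 0.12), and Pcyt1b an enzyme of phosphatidylcholine synthesis (1.69 ± 0.13). Grhl3, an epithelial transcription factor, rose by 1.63 ± 0.13, and Cpm, a membrane carboxypeptidase, by 1.60 ± 0.16. Gucy2e, a guanylate cyclase of the retina, rose by 1.59 ± 0.11 and Itsn1, an endocytic scaffold, by 1.57 ± 0.08. Itga2, the alpha 2 integrin chain of the collagen receptor, was at 8.17, 6.83 and 6.43 CPM and 20.7, 20.8 and 20.6 CPM (log2 change 1.53 ± 0.11, adjusted p = 8.5e-19).

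Tlr7 was the largest fall among genes at 10 CPM or more. This endosomal receptor for single-stranded RNA was at 22.8, 21.1 and 22.99 CPM in control libraries and at 2.42, 3.20 and 2.44 CPM with Batf3 (log2 change -3.05 ± 0.15, adjusted p = 2.43e-29). Sdc3, a heparan sulfate proteoglycan of the cell surface, fell from 125, 127 and 127 CPM to 35.8, 32.7 and 31.5 CPM (log2 change -1.92 ± 0.05, adjusted p = 2.07e-39). Mpeg1, the pore-forming protein perforin-2, fell from 19.3, 22.3 and 22.6 CPM to 6.63, 6.41 and 5.83 CPM (log2 change -1.76 ± 0.11, adjusted p = 3.63e-21). None of these 3 genes had overlapping libraries, which the choice of genes required.

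Further falls came from enzymes and signalling proteins. Car2, a carbonic anhydrase, changed by a log2 value of -1.65 ± 0.15 and Bcat1, the cytosolic transaminase of branched-chain amino acids, by -1.27 ± 0.09. Tpst1, a protein tyrosine sulfotransferase, changed by -1.35 ± 0.11. Asb2, the substrate receptor of a ubiquitin ligase for filamins, was at 44.7, 40.4 and 39.6 CPM and 16.001, 13.7 and 14.8 CPM (log2 change -1.48 ± 0.08, adjusted p = 1.23e-25). Pak6, a p21-activated kinase, changed by -1.24 ± 0.08, Gpsm1, a G protein signalling modulator, by -1.31 ± 0.14, and Ppp2r2c, a regulatory subunit of phosphatase 2A, by -1.23 ± 0.11. Lrrc32, which encodes GARP, the surface carrier of latent TGF-beta, was at 101, 96.01 and 92.9 CPM and 42.1, 40.2 and 39.3 CPM (log2 change -1.25 ± 0.05, adjusted p = 1.74e-30). Ccn3, a secreted matrix-associated protein, changed by -1.31 ± 0.14. The other 3 of the 15 largest falls were Oas1g, Oas2 and Oas1a, members of an antiviral enzyme family described below.

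**Figure D1:**
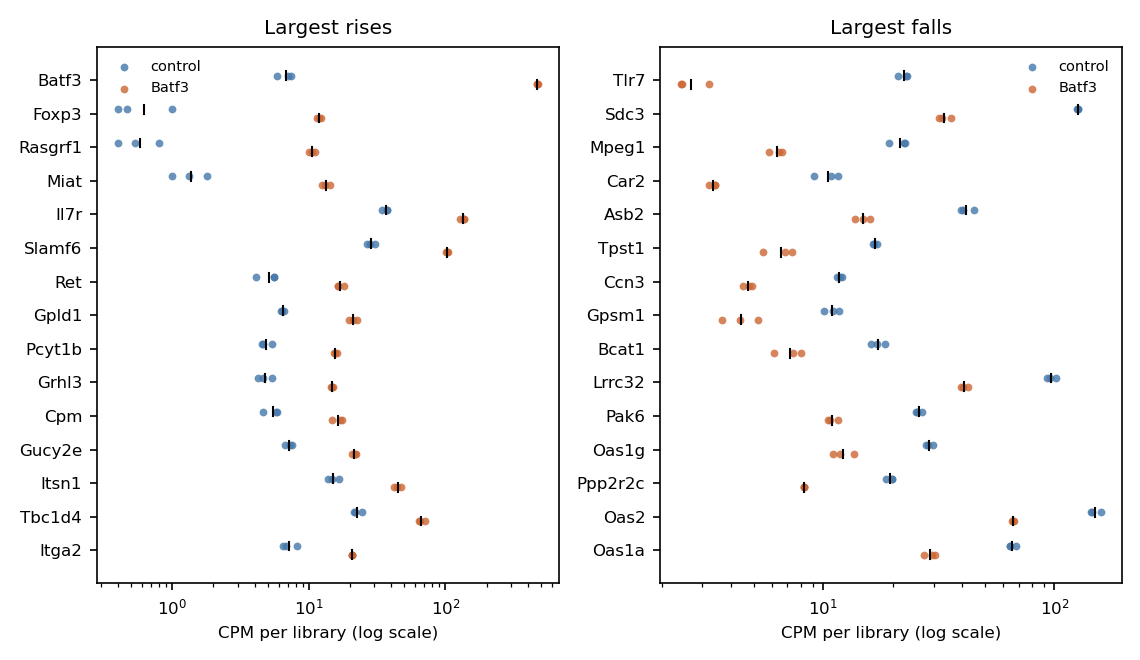
CPM per library on a log axis for the 15 largest rises (left) and 15 largest falls (right) among called genes at 10 CPM or more whose libraries did not overlap; points are libraries and bars the group means. Every gene shown separates the 3 control from the 3 Batf3 libraries, which the choice of genes required.

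By amount rather than fold, other genes led. Ahnak, a giant scaffold protein, rose from 605, 588 and 567 CPM to 1051, 1087 and 1117 CPM (log2 change 0.89 ± 0.03, adjusted p = 2.26e-36). Prex1, a RAC exchange factor, went from 409, 395 and 401 CPM to 677, 664 and 665 CPM (0.74 ± 0.03), and Srrm2, a splicing coactivator, from 837, 843 and 853 CPM to 1134, 1133 and 1141 CPM (0.43 ± 0.02). Both filamin A (Flna, 0.32 ± 0.03) and thymosin beta 4 (Tmsb4x, 0.20 ± 0.02), an actin-binding pair, rose modestly.

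The largest losses in amount were in Eef1a1, the elongation factor that brings tRNA to the ribosome, at 9714, 9677 and 9463 CPM and 7868, 7960.3 and 8064 CPM (log2 change -0.27 ± 0.02, adjusted p = 6.21e-20), and in Hspa8 and Gzmb. Hspa8, the constitutive cytosolic HSP70 chaperone, fell from 3577, 3613 and 3594 CPM to 2362, 2356 and 2405 CPM (log2 change -0.60 ± 0.02, adjusted p = 8.36e-35). Gzmb, the main cytotoxic granzyme, fell from 2792, 2839.6 and 2816 CPM to 1793, 1832 and 1826 CPM (log2 change -0.63 ± 0.02, adjusted p = 4.83e-35). The groups stood clear of each other in all 3 genes.

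A few genes were almost silent in 1 group. Ermn, an oligodendrocyte cytoskeletal protein, had 1 count over the 3 control libraries and 29 over the 3 Batf3 libraries (ratio 28, 95% interval 4.64 to 1140, counting error only). Hey1, a Notch target, had 2 and 21 counts, and Twist1, a basic helix-loop-helix factor, 3 and 21. Osr2 had none and 13, at least 4.18-fold higher against a floor of 3 counts over the group. In the other direction Gzmd had 42 counts in control libraries and none with Batf3, at least 14.5-fold lower, and Gzme had 38 and 1 (39.6-fold lower, 95% interval 6.68 to 1600). Gzmd and Gzme are members of the granzyme cluster with near-identical neighbours, and no source used here says how reads that match several of them were counted.

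Interferon-induced genes fell widely. Type I interferon signals through the receptor IFNAR to transcription factors that bind an interferon-stimulated response element in target promoters and raise genes that block viral replication. Of 108 tested interferon-induced genes, 92 were lower (background 23%) and 6 higher, with a median log2 change of -0.42. The count was 85 lower with library sizes alone.

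The 2'-5' oligoadenylate synthetases, which make the activator of RNase L, fell far, with a median of -1.14 over 7 genes. Oas2 was at 159, 145 and 144 CPM in control libraries and 65.9, 65.8 and 66.98 CPM with Batf3 (log2 change -1.17 ± 0.05, adjusted p = 6.21e-31). Oasl2, a relative with ubiquitin-like domains, went from 275, 282 and 282 CPM to 124, 129 and 127 CPM (log2 change -1.14 ± 0.04, adjusted p = 5.34e-36). Oas1a (-1.17 ± 0.06) and Oas1g (-1.24 ± 0.09) fell about as far, Oas3 fell slightly (-0.10 ± 0.03) and Oas1b rose (0.19 ± 0.06). The Oas1 genes are near-identical copies whose reads the counting may have divided or dropped. Ifi44, an antiviral GTP-binding protein, was at 8.04, 9.28 and 7.55 CPM and 1.59, 3.01 and 2.82 CPM (log2 change -1.74 ± 0.19, adjusted p = 1.04e-12).

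All 6 genes of the ISG15 system fell (median -0.55). Isg15, the ubiquitin-like modifier, was at 304, 308 and 304 CPM and 151, 156 and 154 CPM (log2 change -0.99 ± 0.03, adjusted p = 3.07e-34). Usp18, the protease that removes it and that damps IFNAR signalling, went from 221, 221 and 227 CPM to 114, 111 and 112 CPM (log2 change -0.99 ± 0.04, adjusted p = 6.85e-30). Of 5 IFIT genes, whose proteins bind viral RNA ends, 4 fell, with Ifit2 at -1.01 ± 0.03, Ifit3 at -0.57 ± 0.03 and Ifit1 at -0.37 ± 0.03. All 11 genes of the IFI200 family of DNA sensors, which are close copies on chromosome 1, fell, with a median of -0.54, and Ifi209 went from 1351, 1359 and 1373 CPM to 901, 955 and 949 CPM (log2 change -0.54 ± 0.02, adjusted p = 4.15e-27). Bst2, which tethers virions to the membrane, changed by a log2 value of -0.83 ± 0.03.

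Antiviral GTPases were mixed. Of 16 tested, 9 fell and 3 rose. Mx1 fell (-0.48 ± 0.03), while Gbp2 (0.21 ± 0.03) and Gbp3 (0.23 ± 0.03), guanylate-binding proteins that interferon gamma induces strongly, were among the rises. Genes of interferon signalling were mixed. Irf7, the amplifying factor of type I interferon, was at 451, 447 and 433 CPM and 299.7, 282 and 296 CPM (log2 change -0.60 ± 0.03, adjusted p = 6.29e-25), Irf5 changed by -0.89 ± 0.09, Stat2 by -0.29 ± 0.03 and Ifnar2, a receptor chain, by -0.47 ± 0.06. Both chains of the interferon gamma receptor rose, Ifngr1 by 0.27 ± 0.03 and Ifngr2 by 0.52 ± 0.09. In all, 8 of 23 tested signalling genes fell and 4 rose (median -0.03, and 0.05 with library sizes alone).

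The promoters of these genes carry the response element more often than promoters in general. RefSeq promoter windows on GRCm38.p6, from 250 bases before to 50 bases after the start of transcription, were searched on both strands for GAAA, any 2 bases, GAAA. Among 8039 tested genes with 1 such window, 3.4% held a match, against 37 of 74 of the interferon-induced genes. The median log2 change was -0.52 in the 37 list members with a match and -0.36 in those without. A match describes the letters and not binding. Among list members with 1 window that held a match in the 120 bases before the start, 3 were chosen. These were the largest falls at 10 CPM or more. The 120 bases are shown 5' to 3' on the strand of the gene, with the matched run in capitals. They lie at chr5:120887614-120887733 (minus strand), chr5:120907526-120907645 (minus strand) and chr4:156200819-156200938 (minus strand).
Oas1g: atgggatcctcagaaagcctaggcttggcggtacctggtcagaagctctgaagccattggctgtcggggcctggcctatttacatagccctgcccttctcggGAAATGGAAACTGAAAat
Oas1a: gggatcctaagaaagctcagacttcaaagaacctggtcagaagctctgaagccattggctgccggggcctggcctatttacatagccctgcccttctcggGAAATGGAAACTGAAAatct
Isg15: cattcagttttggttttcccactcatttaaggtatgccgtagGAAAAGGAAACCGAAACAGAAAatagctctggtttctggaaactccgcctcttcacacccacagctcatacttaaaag
In Oas1g and Oas1a the element ends 2 and 4 bases before the start and its letters are shared, whereas in Isg15 it ends 56 bases before.

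Toll-like receptors, which sense microbial products, did not move as a group. Tlr7 fell as given above, and Unc93b1, the chaperone that carries endosomal receptors such as TLR7 to their compartment, fell from 64.2, 67.6 and 62.9 CPM to 43.2, 40.1 and 38.9 CPM (log2 change -0.67 ± 0.06, adjusted p = 1.25e-15). Against this, Tlr1, a partner of TLR2 at the cell surface, rose from 42.6, 38.4 and 39.95 CPM to 89.8, 89.1 and 91.9 CPM (log2 change 1.16 ± 0.06, adjusted p = 1.02e-26) and Tlr6, the other partner of TLR2, from 21.8, 25.3 and 24.3 CPM to 38.8, 42.2 and 41.3 CPM (log2 change 0.78 ± 0.07, adjusted p = 3.44e-14). Tlr2 itself was not called (-0.03 ± 0.15, adjusted p = 0.894). Tlr3, a receptor for double-stranded RNA, rose from low levels (1.07 ± 0.34).

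Antigen presentation genes of MHC class I mostly fell. Of 25 tested, 17 fell and none rose (median -0.18), or 12 and 3 with library sizes alone (median -0.10). For comparison, 50.6% of all tested genes at 100 to 1000 CPM and 64.1% of those over 1000 CPM were lower. H2-K1, a classical heavy chain, went from 2957, 2948 and 2934 CPM to 2645, 2549 and 2625 CPM (log2 change -0.18 ± 0.02, adjusted p = 3.58e-10), Tapbp, the tapasin that loads peptides, changed by -0.41 ± 0.03 and Tap2, a subunit of the peptide transporter, by -0.33 ± 0.04. Heavy chain genes resemble each other closely. For class II 3 of 8 tested genes fell and none rose. Of these, Cd74, the invariant chain, fell from 14.2, 12.7 and 12.9 CPM to 7.14, 8.08 and 6.41 CPM (log2 change -0.88 ± 0.10, adjusted p = 6.18e-11).

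Mitosis genes rose nearly without exception. Of 71 tested, 69 were higher (background 16.3%) and none lower, with a median log2 change of 0.38. All 15 cyclins, kinases and anaphase-promoting complex genes and all 28 kinesin and spindle genes rose, and the count was 70 with library sizes alone. Mki67, which coats mitotic chromosomes, was at 456, 458 and 448 CPM in control and 743, 794 and 778 CPM in Batf3 libraries (log2 change 0.76 ± 0.03, adjusted p = 8.44e-32). Cdc25b, the phosphatase that activates CDK1, went from 156, 150.1 and 159.8 CPM to 244, 244 and 247 CPM (log2 change 0.66 ± 0.04, adjusted p = 6.48e-24). Cit, the citron kinase of cytokinesis (0.67 ± 0.07), Espl1, the separase that cuts cohesin (0.52 ± 0.05), Aspm at spindle poles (0.58 ± 0.05) and Cenpf at kinetochores (0.55 ± 0.05) rose by similar amounts. Ccnb1 (0.31 ± 0.04), Plk1 (0.25 ± 0.05) and Cdc20 (0.19 ± 0.04), core regulators of mitotic entry and exit, rose less.

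DNA replication genes moved the other way. Of 70 tested, 41 were lower and 5 higher (median -0.20), or 33 and 9 with library sizes alone. Among 20 genes for origin licensing and the helicase, 12 fell. Mcm2, a helicase subunit, went from 211, 204 and 205 CPM to 134, 135 and 136 CPM (log2 change -0.62 ± 0.03, adjusted p = 2.19e-23) and Mcm6 from 374, 376 and 369 CPM to 258, 257 and 267 CPM (log2 change -0.52 ± 0.03, adjusted p = 2.08e-22). Orc1 of the origin recognition complex (-0.56 ± 0.10), Rfc3 of the clamp loader (-0.59 ± 0.07) and Timeless of the fork protection complex (-0.43 ± 0.05) fell too. Nucleotide supply showed 17 falls and 3 rises among 23 genes. Umps, which completes pyrimidine synthesis, fell from 66.6, 67.6 and 67.3 CPM to 42.3, 41.1 and 39.9 CPM (log2 change -0.71 ± 0.05, adjusted p = 9.78e-20), while Rrm2, the regulated subunit of ribonucleotide reductase, rose from 188, 184 and 179.8 CPM to 254, 253 and 253 CPM (log2 change 0.46 ± 0.03, adjusted p = 1.4e-18).

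Regulators of cell cycle entry moved in both directions. Of 32 tested, 16 rose and 7 fell. Among 10 cyclins and kinases 4 rose, with Cdk6, the relative of CDK4, at 0.20 ± 0.03 and Ccne1, which encodes cyclin E1, at 0.16 ± 0.05, and 4 fell. Log2 changes over these 10 genes ran from -1.61 to 0.72, and 1 of the falls was 2-fold or more. Among 16 E2F and RB family genes 8 rose and 3 fell. Cdk4 (-0.45 ± 0.04), Ccnd2 (-0.26 ± 0.02) and E2f1 (-0.52 ± 0.08), which drive the passage from G1 into S phase, fell. Inhibitors showed 4 rises among 6 and no fall, with Cdkn1b, which encodes p27, at 56.999, 58.7 and 61.95 CPM and 80.8, 83.5 and 82.7 CPM (log2 change 0.48 ± 0.05, adjusted p = 3.53e-12). E2f2 (0.79 ± 0.04) rose, as did the repressors E2f7 (0.80 ± 0.08) and E2f8 (0.52 ± 0.06), and so did Rbl2, which encodes the pocket protein p130 of quiescent cells (0.51 ± 0.05). Of 45 replication-dependent histone genes tested, 8 rose (a share near the background of 16.3%) and none fell (median 0.37). Only 3 rose with DESeq2's Wald test or without control replicate 3, Batf3 replicate 1 or Batf3 replicate 3, and 4 without control replicate 1. Their transcripts mostly lack a poly(A) tail, which the libraries select for, and many are close copies. Among 29 p53 target genes 14 rose and 3 fell, with Zmat3 (0.42 ± 0.05), Pmaip1, which encodes NOXA (0.44 ± 0.06), and Plk2 (0.62 ± 0.11) among the rises.

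The promoters of the mitosis genes were searched for TTTGAA, the cell cycle homology element that the MuvB complex reads, on both strands. It was present in 70.2% (40 of 57) of windows of mitosis genes and in 12.7% of all 8039 windows. Its final letters can overlap a GAAA. The median log2 change was 0.42 in mitosis genes with the element and 0.35 in those without. For 3 of the genes the 120 bases before the start are given, on the gene's strand. The element is in capitals, also where it reads TTCAAA on the opposite strand. The 3 were the largest rises at 10 CPM or more among members with the element in these bases. The windows are chr7:135716380-135716499 (minus strand), chr15:102296173-102296292 (plus strand) and chr2:129297213-129297332 (minus strand).
Mki67: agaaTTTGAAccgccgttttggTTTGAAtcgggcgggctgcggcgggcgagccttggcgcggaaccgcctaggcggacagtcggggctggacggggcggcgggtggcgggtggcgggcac
Espl1: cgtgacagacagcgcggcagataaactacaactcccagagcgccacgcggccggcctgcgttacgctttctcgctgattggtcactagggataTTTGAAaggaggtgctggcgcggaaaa
Ckap2l: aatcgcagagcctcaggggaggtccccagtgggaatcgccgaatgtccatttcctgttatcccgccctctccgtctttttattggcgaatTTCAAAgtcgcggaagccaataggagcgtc
Ckap2l, a spindle-associated protein, was at 46.1, 46.9 and 48.6 CPM in control and 64.2, 68.4 and 66.4 CPM in Batf3 libraries (log2 change 0.49 ± 0.06, adjusted p = 4.28e-11).

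Genes for making ribosomes fell together. MYC drives these genes in dividing T cells. Myc itself went from 405, 407 and 421 CPM to 312, 290.4 and 284 CPM (log2 change -0.48 ± 0.03, adjusted p = 1.87e-22). Whether the fall of Myc has a part in that of the ribosome genes was not tested. Of 74 genes of the MYC network, nucleolar ribosome assembly and RNA polymerases I and III, 58 fell and 4 rose (median -0.30). Nucleolar assembly factors made up most of this, with 42 of 43 lower. Nop16 was at 41.4, 44.4 and 40.9 CPM and 26.9, 26.1 and 26.1 CPM (log2 change -0.68 ± 0.06, adjusted p = 4.03e-16). Dkc1, the pseudouridine synthase of box H/ACA particles (-0.59 ± 0.03), Nop56 of box C/D particles (-0.51 ± 0.03), the nucleolin gene Ncl (-0.50 ± 0.02) and the methyltransferase Nop2 (-0.51 ± 0.04) fell by similar amounts, and Polr1b, the second largest subunit of RNA polymerase I, by -0.57 ± 0.04. The rises were in MAX-binding antagonists and a MYC relative, with Mxd4 at 0.72 ± 0.08, Mxd3 at 0.56 ± 0.08 and Mycl at 0.85 ± 0.23.

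The E-box CACGTG, the core site of MYC and MAX, occurred in 28.6% (10 of 35) of promoter windows of nucleolar assembly genes and in 10.1% of all windows. The median change of these genes was -0.34 with the site and -0.37 without. Nop2 is shown as an example, at chr6:125131763-125131882 (plus strand), with the E-box in capitals 54 bases before the start.
Nop2: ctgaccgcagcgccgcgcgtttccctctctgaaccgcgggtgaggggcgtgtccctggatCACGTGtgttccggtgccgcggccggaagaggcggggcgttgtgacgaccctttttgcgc

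Protein synthesis and folding genes were mostly lower. Of all tested genes, 50.6% of those at 100 to 1000 CPM and 64.1% of those over 1000 CPM were lower. Of 82 cytosolic ribosomal protein genes, 75 fell and none rose (median -0.23), each by a small amount, such as Rpl3 from 1489, 1496 and 1471 CPM to 1264, 1257 and 1275 CPM (log2 change -0.23 ± 0.02, adjusted p = 5.54e-14). Pseudogenes of these genes can take up some of their reads. Of 44 translation factors and tRNA synthetases 39 fell and 1 rose, with Eif4a1, the helicase of the cap complex, at -0.47 ± 0.02 and Eif5a at -0.44 ± 0.02. Among 27 heat shock and cytosolic chaperones, 24 fell and none rose (median -0.35). The inducible HSP70 gene Hspa1a was at 5.85, 5.24 and 6.82 CPM and 2.23, 3.59 and 1.99 CPM (log2 change -1.20 ± 0.18, adjusted p = 4.14e-08), Hspd1, the mitochondrial HSP60, changed by -0.65 ± 0.03, Hsp90ab1 by -0.53 ± 0.02 and Cct3 of the actin-folding chaperonin by -0.57 ± 0.03. Hspa1a and Hspa1b are near-identical copies.

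Endoplasmic reticulum stress genes showed 17 falls and 4 rises among 26, led by the chaperone BiP gene Hspa5, from 682, 693 and 672 CPM to 435, 452 and 461 CPM (log2 change -0.60 ± 0.02, adjusted p = 4.66e-30). Eif2ak3 (0.31 ± 0.05) and Ern1 (0.36 ± 0.09), the sensors PERK and IRE1, were among the rises. Of 36 proteasome genes 35 fell (median -0.22), including all 5 of the immunoproteasome. That count was 28 with library sizes alone. The share of all tested genes at 100 to 1000 CPM that were lower, 50.6%, applies here too.

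Metabolic genes of growing cells fell as well. As a background for this paragraph and the next, 23% of all tested genes were lower, and 50.6% of those at 100 to 1000 CPM. Of 24 glycolysis and glucose uptake genes, 19 fell and none rose (median -0.26), or 17 and 2 with library sizes alone. Hk2, the inducible hexokinase, went from 83.3, 84.7 and 80.8 CPM to 56.99, 56.2 and 57.9 CPM (log2 change -0.54 ± 0.04, adjusted p = 5.23e-17), Slc16a1, the lactate transporter MCT1, changed by -0.55 ± 0.04 and Ldha by -0.38 ± 0.02. In the pentose phosphate pathway 7 of 11 genes fell and none rose, with Pgd at -0.60 ± 0.04 and Tkt at -0.48 ± 0.03. Of 15 polyamine and methionine genes, 10 fell and none rose (median -0.33). Srm, the spermidine synthase, was at 95.2, 94.95 and 94.1 CPM and 56.1, 52.6 and 56.1 CPM (log2 change -0.79 ± 0.04, adjusted p = 2.57e-25), and Odc1, the rate-limiting ornithine decarboxylase, at 407, 406 and 411 CPM and 262, 254 and 259 CPM (log2 change -0.66 ± 0.03, adjusted p = 1.29e-30).

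Of 14 genes of serine and one-carbon metabolism, 9 fell and none rose (median -0.39), among them Phgdh, the first enzyme of serine synthesis (-0.57 ± 0.03), Shmt2 (-0.48 ± 0.03) and the folate carrier Slc19a1 (-0.69 ± 0.10). Cholesterol synthesis and uptake genes showed 17 falls and 5 rises among 29 (median -0.31). The rises included Abca1, the cholesterol exporter (0.90 ± 0.24), and Mylip, a ubiquitin ligase (0.42 ± 0.08). Fads2, a fatty acid desaturase, changed by a log2 value of -0.84 ± 0.07.

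Respiratory chain genes changed little, and their count depended on the setting. Of 89 tested, 37 fell and 3 rose (median -0.10), but 18 fell and 8 rose with library sizes alone, and 18 fell and 9 rose when transcript length was entered as an offset. Nuclear genes such as Cycs (-0.31 ± 0.04) and Ndufs8 (-0.32 ± 0.06) fell, and mt-Cytb (0.24 ± 0.03) and mt-Co1 (0.15 ± 0.05) of the mitochondrial genome rose.

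**Figure D2:**
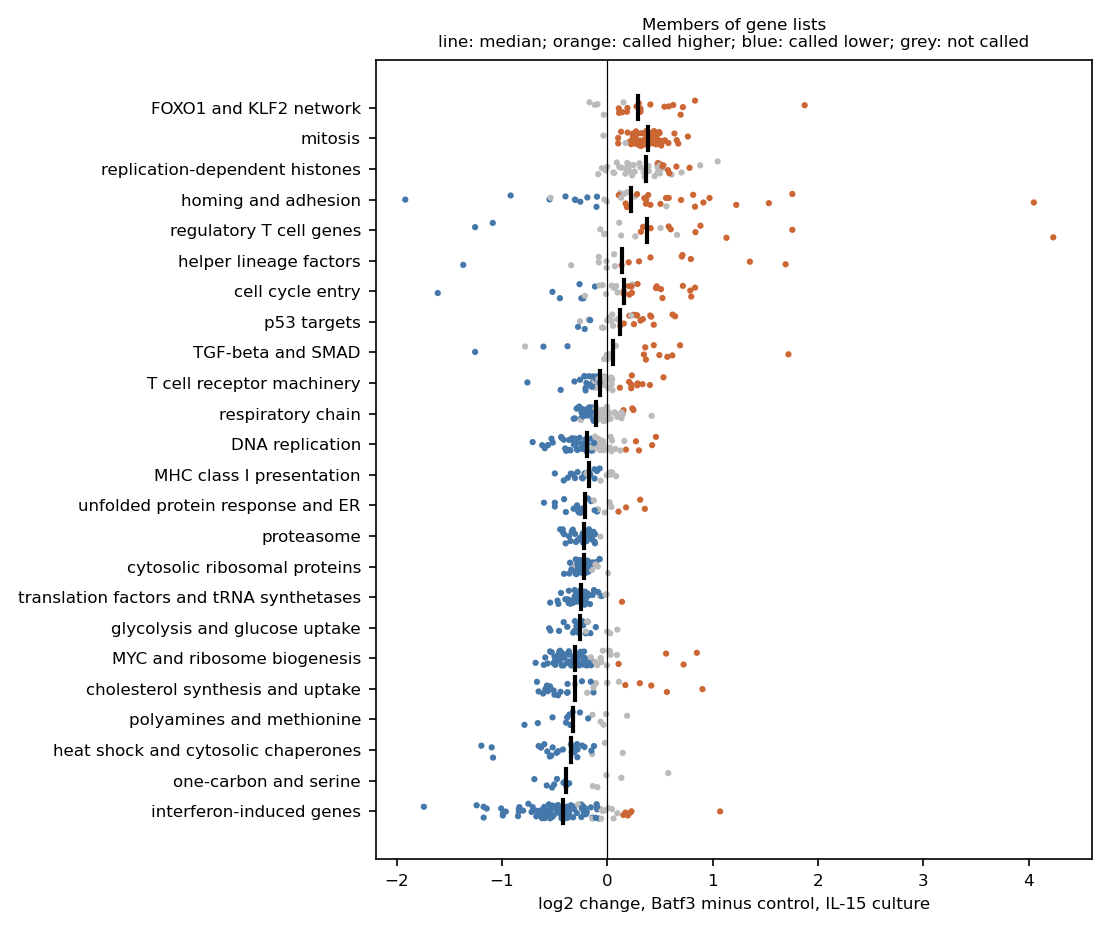
Log2 change of each tested member of 24 gene lists in IL-15 culture, with a line at the list's median; colours mark calls. Mitosis genes form a compact group above zero (median 0.38) while chaperone, ribosome and interferon lists lie below it (medians -0.35, -0.23 and -0.42), and the regulatory T cell and homing lists spread to both sides.

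Genes tied to memory and effector T cells moved in both directions. Of 33 memory-associated genes, 15 rose and 7 fell (median 0.07). Besides Il7r and Slamf6, the rises included S1pr1, the receptor for egress from tissue, from 153, 157 and 160.3 CPM to 272, 290.1 and 276 CPM (log2 change 0.83 ± 0.04, adjusted p = 9.36e-29), and Klf2, the factor that drives it, from 99.8, 103 and 104 CPM to 178, 158 and 160.1 CPM (log2 change 0.70 ± 0.04, adjusted p = 3.43e-21). Il6ra, the IL-6 receptor (0.69 ± 0.08), and P2rx7, the ATP-gated channel (1.76 ± 0.24), also rose. Eomes, a T-box factor linked to memory and to responses to IL-15, fell from 333, 323 and 332 CPM to 149.8, 154 and 151 CPM (log2 change -1.12 ± 0.03, adjusted p = 5.03e-37). Tcf7, which encodes TCF1, fell slightly (-0.20 ± 0.03).

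Of 29 effector-associated genes, 9 rose and 14 fell (median -0.08, and 0.00 with library sizes alone). The granzymes divided. Gzmb fell as above, and Gzmc changed by -0.48 ± 0.04. Gzma, by contrast, rose from 45.97, 45.02 and 41.1 CPM to 121, 125 and 127 CPM (log2 change 1.50 ± 0.05, adjusted p = 1.87e-35) and Gzmk from 1.26, 2.12 and 2.12 CPM to 6.82, 7.24 and 7.18 CPM (log2 change 1.94 ± 0.21, adjusted p = 1e-12). Prf1, which encodes perforin (0.52 ± 0.08), Prdm1, which encodes BLIMP1 (0.88 ± 0.11), and Cx3cr1, a chemokine receptor of effector cells (0.70 ± 0.16), rose, while Serpinb9, the inhibitor that shields cells from granzyme B (-0.54 ± 0.04), fell.

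The FOXO1 and KLF2 network, active in resting T cells, showed 17 rises and no fall among 22 genes (median 0.29). Apart from Il7r, S1pr1 and Klf2 these included Ccng2, a cyclin of arrested cells, from 35.01, 34.5 and 35.3 CPM to 59.4, 54.5 and 58.3 CPM (log2 change 0.72 ± 0.06, adjusted p = 6.96e-15), Klf3 (0.63 ± 0.07), Irs2 (0.58 ± 0.10), Foxo1 itself (0.19 ± 0.04) and Txnip (0.14 ± 0.03). The list shares Il7r, S1pr1 and Klf2 with the memory list. Its median was 0.16 with length as an offset.

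Homing and adhesion genes included some of the widest changes. Of 40 tested, 21 rose and 10 fell (median 0.23). Among 16 chemokine receptors 11 rose and 3 fell. Ccr1, a receptor for CCL3 and CCL5, went from 0.266, 0.332 and 0.133 CPM to 3.95, 3.85 and 4.68 CPM (log2 change 4.05 ± 0.47, adjusted p = 5.19e-16), the control values resting on 11 counts in all. Gpr15, a receptor for homing to the colon, was at 27.9, 24.7 and 25.2 CPM and 62.2, 58.96 and 60.4 CPM (log2 change 1.22 ± 0.07, adjusted p = 2.12e-24), and Cxcr3, which guides T cells to inflamed tissue, at 75.5, 73.5 and 72.5 CPM and 96.2, 95.7 and 93.9 CPM (log2 change 0.37 ± 0.04, adjusted p = 1.49e-10). Ccr2 was among the falls (-0.31 ± 0.03).

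Integrin chains were split. Itgb3, the beta 3 chain, rose from 53.1, 53.2 and 55.7 CPM to 106, 110.1 and 102 CPM (log2 change 0.97 ± 0.05, adjusted p = 1.68e-25) and Itgax, which encodes CD11c, from 8.70, 8.16 and 8.08 CPM to 16.001, 15.8 and 15.1 CPM (log2 change 0.91 ± 0.10, adjusted p = 1.94e-12), while Itgb1 (-0.30 ± 0.03) and Itga5 (-0.92 ± 0.18) fell. Itgax and Itgam (CD11b, 1.29 ± 0.21) also stand on the dendritic cell and macrophage marker lists. Of 6 tested dendritic cell markers 2 rose and 1 fell, and of 4 tested macrophage and monocyte markers 2 rose and none fell. Some other members had few reads, such as Clec9a with 1 count over all 6 libraries and Adgre1 with at most 0.449 CPM.

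Regulatory T cell genes showed 10 rises and 2 falls among 20 (median 0.38). Besides Foxp3 the rises included Ctla4, the inhibitory receptor for CD80 and CD86, from 93.4, 89.2 and 87.3 CPM to 161, 169.96 and 168 CPM (log2 change 0.88 ± 0.04, adjusted p = 5.45e-29), Nrp1, which encodes neuropilin 1, from 5.12, 4.91 and 3.84 CPM to 9.63, 11.2 and 9.55 CPM (log2 change 1.13 ± 0.13, adjusted p = 2.34e-11), and Ikzf4, which encodes EOS (0.60 ± 0.07). Flicr, a long noncoding RNA of the Foxp3 locus, was at 0.797, 0.332 and 0.596 CPM and 1.21, 1.35 and 1.28 CPM (log2 change 1.14 ± 0.39, adjusted p = 0.0103). No source used here gives the strand setting of the counting. The 2 falls were Lrrc32 and Ebi3, a subunit of IL-35 (-1.09 ± 0.26). Ikzf2, which encodes HELIOS, was not called (-0.02 ± 0.07, adjusted p = 0.862). Cd4 had 10 counts over the control and 7 over the Batf3 libraries, and the other 2 markers of CD4 T cells were higher with Batf3, as given above.

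Factors of helper and innate-like lineages rose, at 9 of 17 with 1 fall. Maf, which encodes c-MAF, went from 24.8, 24.9 and 30.2 CPM to 68.02, 68.6 and 67.6 CPM (log2 change 1.35 ± 0.06, adjusted p = 6.79e-28), Runx1 from 2.33, 3.05 and 2.98 CPM to 9.37, 7.69 and 9.999 CPM (log2 change 1.69 ± 0.16, adjusted p = 3.6e-15) and Gata3 from 31.7, 31.2 and 31.9 CPM to 53.7, 49.7 and 51.3 CPM (log2 change 0.71 ± 0.06, adjusted p = 1.09e-15). Zbtb7b, which encodes the CD4 lineage factor ThPOK, rose by 0.71 ± 0.09, Rora by 0.79 ± 0.09 and Runx3, the CD8 lineage factor, by 0.41 ± 0.04. Pparg, at 2.85 to 2.92 CPM in control libraries, was the fall (-1.37 ± 0.26). Cd8a changed by a log2 value of -0.20 ± 0.03 and Cd8b1 rose by 0.21 ± 0.03.

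Inhibitory receptors were mixed, with 7 rises and 5 falls among 20, or 3 falls without control replicate 3. Tigit rose from 18.2, 18.3 and 18.02 CPM to 32.8, 34.4 and 30.2 CPM (log2 change 0.84 ± 0.07, adjusted p = 1.71e-16) and Pdcd1, which encodes PD-1, from 11.8, 13.7 and 13.5 CPM to 17.7, 15.6 and 17.9 CPM (log2 change 0.39 ± 0.08, adjusted p = 2.44e-05). Cd160 (-0.54 ± 0.05) and Cd244a (-0.84 ± 0.13) fell, as did Havcr2, which encodes TIM-3, from low levels (-0.37 ± 0.15).

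NK-type receptors showed 8 rises and 4 falls among 17, with 5 rises without control replicate 1, without Batf3 replicate 3 or with DESeq2's Wald test. Cd7, an adhesion receptor of T and NK cells, went from 25.4, 26.1 and 24.6 CPM to 66.7, 69.3 and 63.6 CPM (log2 change 1.39 ± 0.06, adjusted p = 7.24e-28). Klra5, an inhibitory Ly49 receptor with close copies, rose by 2.25 ± 0.28 from about 1 CPM. Crtam, which marks cytotoxic cells and binds CADM1, fell from 9.43, 9.75 and 9.34 CPM to 4.02, 3.72 and 3.72 CPM (log2 change -1.31 ± 0.13, adjusted p = 4.88e-18), and Klrb1c, which encodes NK1.1, from 3.92, 2.45 and 2.72 CPM to 0.893, 0.961 and 0.513 CPM (log2 change -1.93 ± 0.32, adjusted p = 1.61e-07).

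Several chemokine transcripts fell. Of 11 chemokine genes 6 fell and 2 rose (median -0.75), and of 17 cytokine genes, several of them with few or no reads, 3 fell and 1 rose (median 0). Ccl4, a chemokine made by activated T cells, was at 19.3, 19.8 and 22.1 CPM and 11.3, 10.3 and 8.91 CPM (log2 change -1.004 ± 0.08, adjusted p = 2.86e-15) and Xcl1, which attracts XCR1-positive dendritic cells, at 10.1, 9.81 and 12.1 CPM and 5.93, 5.51 and 4.61 CPM (log2 change -0.995 ± 0.11, adjusted p = 8.7e-15). Ccl3 (-0.76 ± 0.14) and Cxcl9 (-0.75 ± 0.09) fell also, but Ccl5 rose from 149, 148 and 159 CPM to 240.3, 236 and 242 CPM (log2 change 0.65 ± 0.03, adjusted p = 1.23e-23). Lif, a cytokine of the IL-6 family, fell from 172, 172 and 169 CPM to 102, 103 and 103 CPM (log2 change -0.73 ± 0.03, adjusted p = 4.78e-27).

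Among 13 TNF family ligands 7 fell and 2 rose. Over ligands and receptors together 12 of 29 fell and 7 rose, or 7 and 10 with library sizes alone (TNF and TNF receptor superfamilies). Tnfsf11, which encodes RANKL, was at 5.85, 6.63 and 6.36 CPM and 2.49, 2.44 and 2.12 CPM (log2 change -1.42 ± 0.16, adjusted p = 1.34e-13), Tnfsf8, the CD30 ligand, at 247, 243 and 247 CPM and 156, 154 and 156 CPM (log2 change -0.66 ± 0.03, adjusted p = 2.66e-26), and Tnf changed by -0.44 ± 0.04. Cd40lg rose from 0.332, 0.398 and 0.398 CPM to 1.02, 1.03 and 1.09 CPM (1.45 ± 0.41).

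The receptor for IL-15 changed modestly and in both directions. Il2rb, its signalling chain, rose from 1146, 1132 and 1135 CPM to 1378, 1303 and 1301 CPM (log2 change 0.22 ± 0.03, adjusted p = 4.38e-11), Il2rg, the common gamma chain, fell from 249, 252 and 258 CPM to 211, 204 and 206 CPM (log2 change -0.29 ± 0.03, adjusted p = 4.08e-12), and Il15ra changed by -0.25 ± 0.07. Among other cytokine receptors Il18r1 rose from 166, 172 and 166 CPM to 254, 259 and 262 CPM (log2 change 0.62 ± 0.03, adjusted p = 2.44e-24) and Il10ra fell from 197, 200.05 and 195 CPM to 128, 128 and 119.9 CPM (log2 change -0.66 ± 0.04, adjusted p = 7.68e-22). Of 27 receptor genes 10 rose and 9 fell.

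Genes of T cell receptor signalling showed no direction that held across scalings, and their early targets fell more often than they rose. Of 50 genes of the receptor machinery 21 fell and 10 rose (median -0.07), but 11 fell and 17 rose with library sizes alone. Cd6, a receptor that restrains activation, fell furthest, from 95.7, 96.1 and 97.3 CPM to 54.95, 59.4 and 56.5 CPM (log2 change -0.76 ± 0.04, adjusted p = 9.46e-26). Among 40 early response factors and brakes 20 fell and 6 rose (median -0.18, and -0.11 with library sizes alone). Egr3, a target of NFAT, changed by -0.59 ± 0.07, Dusp4, a MAP kinase phosphatase, by -0.71 ± 0.09, and the RAS pathway inhibitors Spred1 and Spry2 by -0.75 ± 0.10 and -0.96 ± 0.23. Tnfaip3, which encodes the NF-kB inhibitor A20, rose from 83.8, 86.5 and 82.2 CPM to 114, 113 and 115 CPM (log2 change 0.44 ± 0.03, adjusted p = 9.96e-18).

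Survival genes did not move 1 way. Of 32 apoptosis genes 8 rose and 11 fell (median -0.06, and 0.02 with library sizes alone), and 5 rose without Batf3 replicate 2. Bcl2a1b, a pro-survival member of the BCL-2 family with near-identical copies, was at 6.05, 6.43 and 6.16 CPM and 2.74, 3.27 and 2.88 CPM (log2 change -1.07 ± 0.15, adjusted p = 3.78e-09), and Bcl2a1d changed by -0.82 ± 0.11. Casp8, the initiator caspase of death receptors, fell from 228, 222 and 222 CPM to 164, 168 and 165 CPM (log2 change -0.44 ± 0.03, adjusted p = 4.95e-17). Pim1, a pro-survival kinase and STAT5 target, rose from 227, 237 and 239 CPM to 311, 298 and 290.04 CPM (log2 change 0.35 ± 0.03, adjusted p = 2.32e-15), and its relative Pim3 fell (-0.49 ± 0.05).

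Other regulators are given more briefly. In TGF-beta signalling 9 of 20 genes rose and 3 fell, with Ski, a repressor of SMAD transcription, from 87.6, 86.7 and 84.7 CPM to 136, 131 and 129.7 CPM (log2 change 0.62 ± 0.04, adjusted p = 6e-21), Smad3 at 0.57 ± 0.04 and Smad7 at 0.49 ± 0.05. Among 15 purinergic genes 6 rose and 4 fell, with P2ry14, a receptor for UDP-glucose, from 169.7, 169 and 172 CPM to 101, 103 and 95.9 CPM (log2 change -0.77 ± 0.04, adjusted p = 6.47e-25). Among 17 clock genes 6 rose and 2 fell, including Per2 (-1.06 ± 0.14) as a fall and Arntl, which encodes BMAL1 (0.50 ± 0.10), as a rise. Of 40 chromatin regulators 13 rose and 12 fell, or 20 and 5 with library sizes alone. Kmt2d (0.54 ± 0.04) and Kmt2a (0.44 ± 0.03), histone H3 lysine methyltransferases, rose and Dnmt3b (-0.34 ± 0.08), a DNA methyltransferase, fell.

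Long noncoding RNAs were seldom called lower, at 29 of 899 tested (3.23%, background 23%). The 170 called higher (18.9%) were near the background of 16.3% (median 0.23). Among all tested genes at 1 to 10 CPM 8.18% were lower, and under 1 CPM 2.19%. Pseudogenes were seldom called higher, with 99 higher (4.14%) and 715 lower (29.9%) among 2390 (median -0.15), a class that holds copies of ribosomal protein genes. Mirt1 was a named noncoding rise besides Miat (1.47 ± 0.11). Mir17hg, the host transcript of a microRNA cluster that MYC activates, fell from 20.8, 20.3 and 21.5 CPM to 12.2, 12.7 and 12.5 CPM (log2 change -0.74 ± 0.08, adjusted p = 1.11e-11), and hosts of small nucleolar RNAs such as Gas5 (-0.33 ± 0.04), Snhg1 (-0.34 ± 0.04) and Zfas1 (-0.27 ± 0.05) fell too.

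Calls also followed transcript length. Among 660 protein-coding genes whose longest annotated transcript exceeded 8000 bases, 47.9% were higher and 11.7% lower with Batf3 (median 0.16), and among 529 genes under 1000 bases 6.99% were higher and 27.6% lower (median -0.09). Over the 6 length classes the share called higher and the median rose from each class to the next, while the share called lower was 29.1% from 1000 to 2000 bases and fell from there. Base composition showed no such order. When a smooth trend on length was removed, 2344 genes were higher and 3396 lower. Of the mitosis list 67 of 71 were then higher, and of the interferon-induced genes 93 of 108 were lower. Lists of short transcripts moved more. Cytosolic ribosomal protein genes (median length 1076.5 bases) went from 75 to 70 lower, and their median from -0.23 to -0.16. Proteasome genes (median length 1851 bases) went from 35 to 30 lower, and their median from -0.22 to -0.18. Whether the trend comes from the cells or from the libraries was not tested.

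**Figure D3:**
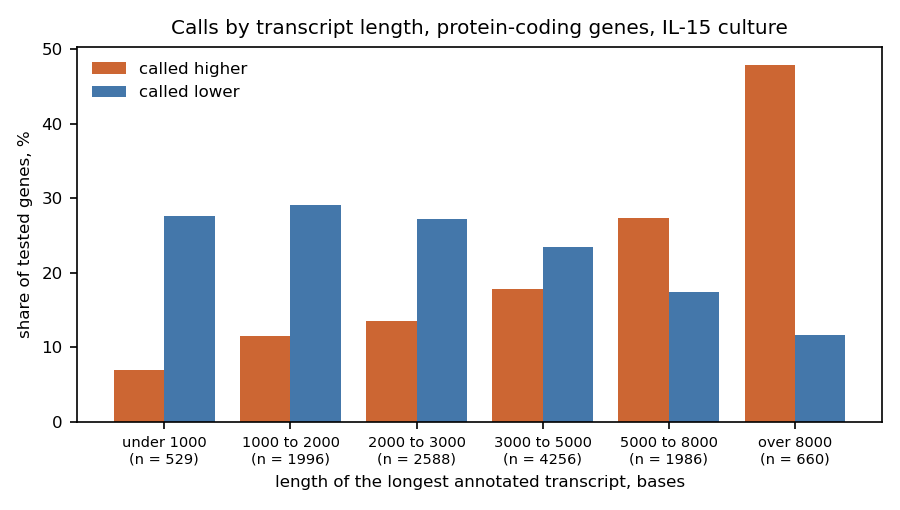
Share of tested protein-coding genes called higher or lower with Batf3 (vertical axis, percent) by the length of the longest annotated transcript in bases. The share called higher climbs from 6.99% in the shortest class to 47.9% in the longest, while the share called lower drops from 27.6% to 11.7%.

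The AP-1 site TGANTCA was searched in the same windows. It occurred in 6.04% (11 of 182) of promoter windows of genes 2-fold higher, in 7.69% (5 of 65) of those 2-fold lower and in 4.85% of all windows. Among the interferon-induced genes it occurred in 18.9% (14 of 74), with a median change of -0.45 in those with the site and -0.43 in those without. The window covers only the near promoter, and sites farther away were not searched.

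Several of these effects differed from those after CD3 and CD28 antibodies. The difference between the vector's effects in the 2 cultures was called for 3250 genes (20.7%) by the interaction test. Of genes called in both cultures, 2424 had the same direction and 362 the opposite one. Each culture had its own control libraries.

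DNA replication genes shifted between the cultures. Their median log2 change was -0.20 in IL-15 culture and 0.37 after CD3 and CD28, and the difference was called for 57 of 70 genes, higher after stimulation in every one of the 57. Mcm2 changed by -0.62 and 0.51 (interaction adjusted p = 8.82e-26). Mitosis genes rose in both cultures, with medians of 0.38 and 0.64 and a called difference in 28 of 71. Ribosome biogenesis genes had medians of -0.30 in IL-15 culture and -0.02 after stimulation, where the effect was called higher in 51 of 74 and lower in 1. Chaperone genes had medians of -0.35 and -0.09 and a called difference in 24 of 27.

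Interferon-induced genes were lower in both cultures by similar medians, -0.42 and -0.37, but 26 of the 108 were called less lowered or raised after stimulation and 33 more lowered. Isg15 changed by -0.99 in IL-15 culture and -0.17 after stimulation (interaction adjusted p = 1.65e-19), and the IFI200 family had medians of -0.54 and -0.97. Gzmb fell in IL-15 culture (-0.63) and was higher after stimulation (0.30, interaction adjusted p = 1.61e-35). Eomes changed by -1.12 and -0.19 (interaction adjusted p = 1.07e-19), and Itgb3 by 0.97 and -0.32 (interaction adjusted p = 1.83e-05). For Il7r (1.87 and 1.96) and Tlr7 (-3.05 and -3.04) the difference was not called (interaction adjusted p = 0.794 and 0.989).

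**Figure D4:**
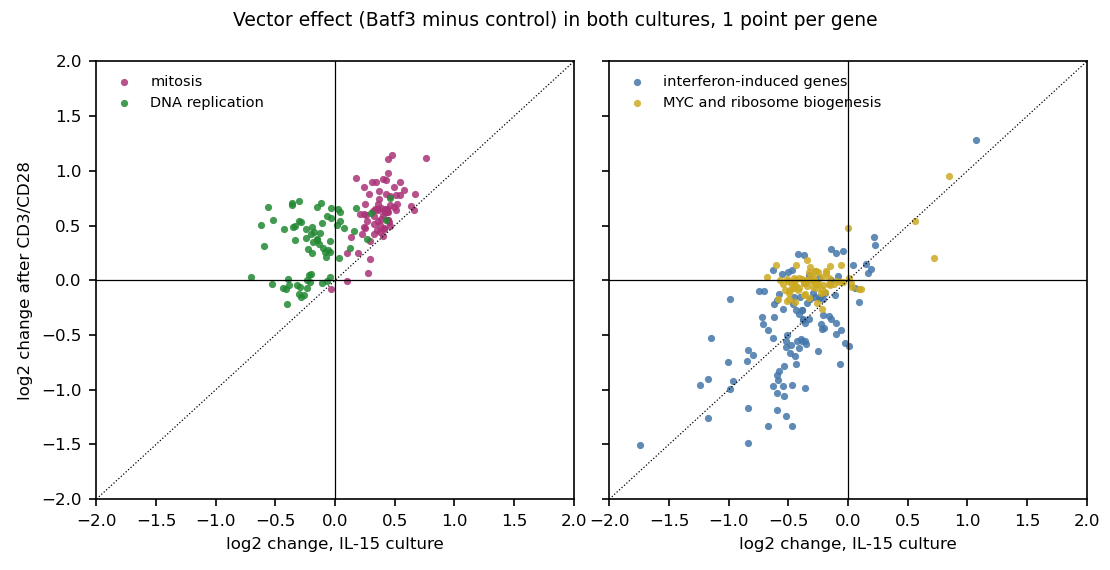
Log2 change with the Batf3 vector in IL-15 culture (horizontal axis) against that after CD3 and CD28 antibodies (vertical axis) for members of 4 lists, 1 point per gene, with a dotted line of equal change. Most replication genes lie left of zero and above it (medians -0.20 and 0.37), but the nucleotide supply members among them centre near zero after stimulation (median 0.01). Mitosis genes lie in the upper right, and ribosome genes on the left near zero on the vertical axis.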

How the data were processed

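Per the labels, polyadenylated RNA from 100 ng of total RNA was made into stranded libraries with 15 PCR cycles and fragments of about 320 bp. The authors deposited whole-number read counts per Ensembl gene, made with STAR 2.7 and featureCounts on GRCm38 per the submitters' processing notes. No source used here gives the annotation release, the strand setting or the treatment of multi-mapping reads. The 12 columns matched the 12 samples by name, and all 55335 rows named a gene.

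The software was edgeR 4.0.16 under R 4.3.3. Genes passing filterByExpr (minimum count 10), 15702 in all, were fitted with 4 group means, TMM factors and robust quasi-likelihood on all 12 libraries, with 8 residual degrees of freedom. Tests were two-sided with Benjamini-Hochberg adjustment over all tested genes. Log2 changes are Batf3 minus control ± SE, and CPM values carry no pseudocount. Intervals and floors cover counting error only, since reads without molecular identifiers are not independent molecules. Lengths came from GENCODE M21, which matched 15689 of the tested genes. Promoter windows came from RefSeq (GRCm38.p6) without chromosome 18, and 10049 genes had 1 or more. Alternatives used limma 3.58.1 and DESeq2 1.42.0 among others, and the length offset (a lowess trend with span 0.3) was added after seeing the data.

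The comparison, the gene lists and the named members were chosen with earlier results of these data known. Named genes were the 15 largest rises and falls at 10 CPM or more without overlap, the 10 largest changes in amount in each direction, genes nearly silent in 1 group, leading noncoding RNAs and up to 3 called members of each list in each direction. Further list members were named for their known role, after their values were seen. Results for some genes are not reported here.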

Additional observations from a re-analysis of the deposited data

Results flagged for a closer look

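Of the 30 genes named for their fold change, 16 had a vector effect that differed between the 2 cultures by the interaction test of edgeR (Benjamini-Hochberg, n = 3 libraries a group). These genes were chosen for large changes in IL-15 culture, and the interaction uses the same values, so that the choice itself favours a smaller effect in the other culture. The values are the log2 effect after CD3 and CD28 antibodies minus that in IL-15 culture. Rises were smaller after stimulation for Batf3 (-1.58), Foxp3 (-1.9), Rasgrf1 (-2.32), Slamf6 (-0.66), Gucy2e (-1.23) and Itsn1 (-1.11), and larger for Itga2 (0.93). For Batf3 the control level was 18.4 CPM after stimulation against 6.77 CPM in IL-15 culture, and the level with the vector 427 against 470.4 CPM.

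The 9 falls among them were smaller after stimulation. The differences were 0.57 for Sdc3, 1.1 for Car2, 1.13 for Asb2, 0.81 for Tpst1, 0.8 for Gpsm1, 1.13 for Bcat1, 0.41 for Lrrc32, 0.8 for Pak6 and 0.72 for Ppp2r2c. Adjusted p ran from 2e-22 for Batf3 to 0.0227 for Gucy2e. The cause of these differences was not tested.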

How the results depend on the processing

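Among alternative settings, library sizes alone moved the number of genes called lower from 3615 to 2397. A filter at a mean of 10 CPM left 58 genes 2-fold higher and 26 genes 2-fold lower, from 9615 tested genes. DESeq2's Wald test called 2016 higher and 3042 lower, limma-voom 2648 and 3601, and the fit on the 6 IL-15 libraries alone 2990 and 3052. That last fit has no interaction. Leaving out 1 library at a time gave 2231 to 2970 genes higher, 3103 to 3912 lower, 357 to 434 at 2-fold higher, 129 to 150 at 2-fold lower and 2556 to 3196 interactions. Equal replicate numbers did not pair the libraries (correlations of deviations 0.0007, -0.0335 and -0.0452), and the fit with the replicate number as a block called 6059 genes, 2502 higher and 3557 lower. Depth limits low genes: under 1 CPM, 96 genes were called higher and 37 lower, of which 96 and 36 changed by 2-fold or more.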
